A study of Mus musculus with 4 samples.

Results

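The small nuclear RNA (snRNA) gene copies described here are 7 loci that the annotation lists only by number: Gm22513, Gm24305, Gm22973, Gm25360, Gm24666, Gm22753 and Gm23205. They were chosen by symbol from 1385 annotated snRNA genes among 54232 genes in the table, and they were chosen with their difference between knockout and wild-type testes already known. Their levels in the 2 genotypes are therefore given as a description, with no test. The samples are whole testes of B6D2F1 mice taken at postnatal day 17, from Dis3 conditional knockout (KO) mice with 2 libraries and from Dis3 wild-type (WT) controls with 2 libraries. For the Cre driver, the cells in which it acts and the exons removed, the sources used here give nothing. The labels do not state whether the libraries of a genotype come from separate animals, so p-values here reflect only how far these libraries spread. Per the labels, the molecule is polyA RNA, whereas the protocol starts from total RNA and primes cDNA with random and poly(T) primers, with strand selection and depletion of targeted transcripts.

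Small nuclear RNAs are short, highly structured transcripts that form the cores of the ribonucleoproteins of the spliceosome. U1 RNA pairs with the 5′ splice site and U2 RNA with the branch site of an intron, whereas U6 RNA joins later and forms part of the catalytic centre. RNA polymerase II makes U1 and U2 from dispersed or clustered multicopy genes and RNA polymerase III makes U6, and mammalian genomes also hold many diverged U6 and U1 copies that lack a working promoter. DIS3 is a catalytic ribonuclease of the RNA exosome, which trims and degrades many nuclear transcripts from their 3′ ends.

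Likely classes were taken from the best alignment of each copy to the snRNA genes whose symbol names a class. Gm22513 and Gm24305 belonged to the U1 class, Gm22973 and Gm25360 to the U2 class, and Gm22753 to the U6 class. Gm24666 aligned to U2 RNA over its first 57 bases only, at 93.0% identity, and its full length was 56.7% identical to Rnu2-10. Gm23205 was a diverged U6 copy, 72.9% identical to Rnu6 over its full length, with Rnu6-ps2 as its best alignment. The U1 and U2 sequences below, from the GENCODE M21 transcripts of GRCm38, show how little separates some copies from the named genes. In the named genes the capitals mark the stretch that pairs with the 5′ splice site (CTTACCT in Rnu1a1) or with the branch site (GTAGTA in Rnu2-10). In the other copies the capitals mark bases that differ from, or are inserted relative to, the named gene of their class.
Rnu1a1: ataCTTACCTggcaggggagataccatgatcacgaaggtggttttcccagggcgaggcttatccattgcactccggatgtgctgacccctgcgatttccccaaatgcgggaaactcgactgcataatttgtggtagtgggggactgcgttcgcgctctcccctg
Gm22513: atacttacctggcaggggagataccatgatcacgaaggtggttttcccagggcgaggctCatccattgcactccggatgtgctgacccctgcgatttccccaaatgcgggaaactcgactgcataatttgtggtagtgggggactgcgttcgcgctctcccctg
Gm24305: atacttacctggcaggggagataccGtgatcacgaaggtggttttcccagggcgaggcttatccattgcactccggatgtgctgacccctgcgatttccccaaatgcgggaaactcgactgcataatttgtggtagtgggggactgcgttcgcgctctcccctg
Rnu2-10: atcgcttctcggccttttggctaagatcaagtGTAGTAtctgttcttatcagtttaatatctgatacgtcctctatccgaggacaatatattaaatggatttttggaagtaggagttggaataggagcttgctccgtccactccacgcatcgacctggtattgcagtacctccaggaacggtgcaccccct
Gm22973: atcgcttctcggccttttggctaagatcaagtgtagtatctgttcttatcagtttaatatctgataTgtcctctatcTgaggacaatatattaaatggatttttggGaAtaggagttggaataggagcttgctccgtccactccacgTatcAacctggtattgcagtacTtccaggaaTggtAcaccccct
Gm25360: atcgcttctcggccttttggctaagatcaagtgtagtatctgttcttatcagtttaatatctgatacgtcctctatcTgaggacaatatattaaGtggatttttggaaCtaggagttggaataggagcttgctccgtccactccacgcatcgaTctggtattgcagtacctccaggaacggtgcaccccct
Gm24666: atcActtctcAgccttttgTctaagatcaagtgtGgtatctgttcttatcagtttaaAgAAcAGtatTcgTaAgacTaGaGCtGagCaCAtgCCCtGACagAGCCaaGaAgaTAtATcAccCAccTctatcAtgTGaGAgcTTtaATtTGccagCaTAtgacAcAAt

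With positions counted from 1 at the 5′ end of Rnu1a1, Gm22513 differed from Rnu1a1 only by T60C and Gm24305 only by A26G, so each was 99.4% identical to it and the pair were 98.8% identical to each other. Gm25360 differed from Rnu2-10 by the 4 substitutions C78T, A95G, G109C and C154T, at 97.9% identity. Gm22973 carried 9 substitutions relative to Rnu2-10 (95.3% identity) and differed from Gm25360 at 10 positions. Gm22753 was 89.9% identical to Rnu6 over its full length.

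The U1 stretch CTTACCT was present on the sense strand of both U1 copies, as in 5.35% of the 1383 annotated snRNA genes with a sequence and in 35.1% of the U1 class; 0.434% of all held it on the reverse strand. GTAGTA was present in Gm22973 and Gm25360 but not in Gm24666, and 59.3% of the U2 class and 3.69% of all genes held it, with 1.16% on the reverse strand. ACAGAGA, the letters of the U6 box that pairs with the 5′ splice site, was present in Gm23205 and not in Gm22753, and 60.3% of the U6 class and 42.2% of all genes held it, with 0.578% on the reverse strand. The letters ATTTTTG, which in U2 RNA bind the Sm ring, were present in Gm22973 and Gm25360 and in 3.33% of all genes (2.24% on the reverse strand). The corresponding U1 letters, ATTTGTG, were present in both U1 copies and in 12.9% of all genes (9.47% on the reverse strand). A match of letters describes the sequence and does not show that the RNA is made or assembled.

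Each library held between 17663416 and 40329170 reads assigned to genes, and the KO libraries were the shallower pair with 17663416 and 19255782 reads. Values below are raw reads and CPM, which are reads relative to the depth of the library after TMM scaling. Dis3 averaged 41.1 ± 2.34 CPM in KO testes and 80.2 ± 0.294 CPM in WT testes (SD, n = 2 each), a log2 fold change of -0.96 ± 0.0729 (SE; edgeR adjusted p = 2.34e-09). Background, measured as reads per kilobase in regions upstream of genes, was 3.01 and 3.39 in KO libraries and 2.7 and 2.53 in WT libraries, so that relative to depth it was higher in KO. All 7 pachytene spermatocyte markers fell in KO (summed level 1370 and 1260 CPM in KO, 2210 and 2340 CPM in WT). All 6 macrophage markers rose (174 and 158 CPM in KO, 91.1 and 92.9 CPM in WT), as did 3 of 7 Sertoli markers (5610 and 5470 CPM in KO, 5030 and 5010 CPM in WT). Of 5 spermatogonial markers 3 fell, of 5 Leydig markers 2 fell, and of 4 spermatid markers 1 was tested and did not pass, at a summed level of 0.985 and 1.65 CPM in KO and 0.607 and 0.578 CPM in WT. The part of these shifts in the values below was not tested, and in bulk testis fewer cells of a type and less RNA per cell cannot be told apart.

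All 7 copies passed the filter on low counts, beside 2 other annotated snRNA genes. In the edgeR fit across 25076 genes (Benjamini-Hochberg adjusted p under 0.05), 4 of the 7 were called higher in KO and 0 lower, where 11.6% of all tested genes were called higher and 20.3% lower, 31.9% in all. The KO libraries both lay above the WT libraries for 5 of the 7 copies and both below for 1, where 35.6% and 32.7% of all tested genes did so. Since the copies were picked on this contrast, nothing is read from these counts. Per kilobase of gene, mean levels in KO ran in the order Gm22513, Gm24305, Gm22973, Gm25360, Gm22753, Gm24666 and Gm23205, at 61.6, 31.6, 11.7, 8.03, 4.82, 2.87 and 1.24 CPM per kb. In WT the same copies in the same order stood at 1.16, 0.321, 2.09, 2.13, 1.3, 2.83 and 4.43 CPM per kb. The copy with the lowest level in KO, Gm23205, was thus the one with the highest level in WT. In KO no neighbours in this order overlapped between libraries, although Gm22973 and Gm25360 (lowest 11.2 against highest 10.9 CPM per kb) and Gm25360 and Gm22753 (5.16 against 5.11 CPM per kb) were nearly level. In WT the libraries of Gm24666, Gm25360 and Gm22973 overlapped in turn, as did those of Gm22753 and Gm22513. These levels use the full length of each gene, although not all of every copy can be told apart. The share of 50-base windows found in no other annotated transcript was 22.6% for Gm24305, 41.7% for Gm22513, 62.0% for Gm25360 and 88.0% for Gm22973. It was 100% for Gm22753, Gm24666 and Gm23205. The order thus describes counted reads and need not rank the amounts of RNA.

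**Figure D1:**
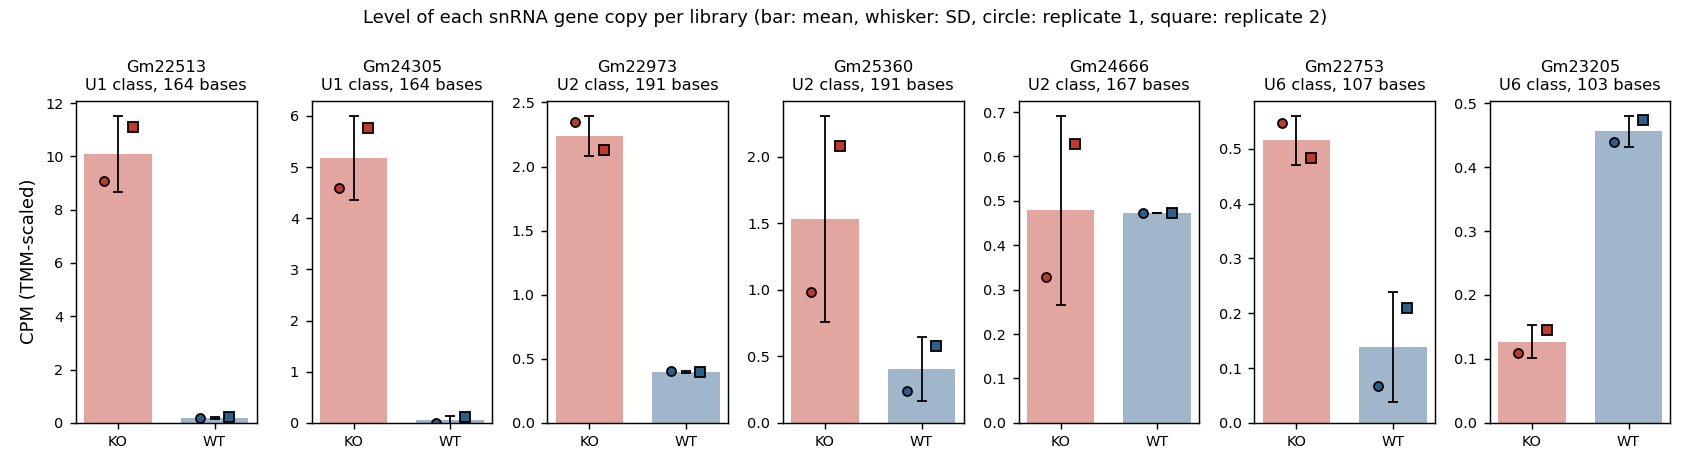
CPM (TMM-scaled, vertical axes, a separate scale for each gene) of the 7 snRNA gene copies in KO and WT testes. Bars are means of 2 libraries, whiskers the SD, circles replicate 1 and squares replicate 2; Gm22513 averaged 10.1 CPM in KO and 0.189 CPM in WT, while Gm23205 averaged 0.127 CPM in KO and 0.456 CPM in WT.

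The U1 copies showed the widest separation. Gm22513 (ENSMUSG00000096349), 164 bases at chr12:54696782-54696945 on the plus strand of GRCm38, had 166 and 230 reads in KO libraries, against 5 and 8 reads in WT libraries. This is 10.1 ± 1.45 CPM in KO and 0.189 ± 0.0295 CPM in WT (SD, n = 2 each), a log2 fold change of 5.69 ± 0.294 (SE). Both KO libraries were high and both WT libraries low, with no overlap, and the ratio of summed, depth-scaled reads was 53.0, or 5.73 on the log2 scale with an exact 95% counting interval of 4.94 to 6.64. Gm24305 (ENSMUSG00000095590), 164 bases at chr12:54734555-54734718 on the minus strand, had 84 and 119 reads in KO libraries, against 0 and 4 reads in WT libraries. It averaged 5.18 ± 0.825 CPM in KO and 0.0526 ± 0.0744 CPM in WT, with a log2 fold change of 6.35 ± 0.481 and a ratio of 88.2 (counting interval 33.9 to 327). Its KO libraries again both exceeded its WT libraries, and 0 reads in the first WT library allow up to 3 reads, or 0.101 CPM. These intervals and limits cover counting error only. Ranked by fitted log2 fold change among the 25076 tested genes, Gm24305 stood at rank 5 and Gm22513 at rank 6 from the highest. The value of Gm24305 rests on 4 WT reads: it was 9.89 without the second WT library, where it depends on the prior count, and 5.52 without the first, so its order against Gm22513 is not fixed.

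Although Gm24305 is read from the opposite strand of the chromosome, the pair kept close to the same ratio of reads in every library where it could be formed. Gm22513 had 1.98 and 1.93 times the reads of Gm24305 in the KO libraries and 2.0 times in the second WT library, where that ratio rests on 8 and 4 reads. More of the sequence of Gm22513 than of Gm24305 tells it apart. Of 115 windows of 50 bases, 48 windows of Gm22513 and 26 windows of Gm24305 were found in no other annotated transcript on either strand. Each of these windows covered the single distinguishing base, T60C in Gm22513 or A26G in Gm24305, and no other window separates either copy from all other genes. The recorded counting commands hold no option to keep reads that map to several places. Copies with no such window nonetheless held some assigned reads: the 19 of the U1 class had 18 and 21 reads in KO and 7 and 21 reads in WT. Read length is not known here, so which stretch of Gm22513 or Gm24305 the counted reads came from was not tested.

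The pair lie 37773 bases apart in a cluster of U1 copies with 5 others. Gm22634, Gm23804, Gm25679, Gm26444 and Gm22317 are each 99.4% identical to both, and 0 of their 115 windows occur nowhere else. Together these 5 copies had 4 and 2 reads in KO libraries and 0 and 0 reads in WT libraries, which says nothing of how much RNA they make. The genes on either side of the cluster behaved unlike the pair. Eapp, an E2F-associated phosphoprotein gene that lies 885 bases from Gm22513, had a log2 fold change of -0.09 ± 0.0701 (edgeR adjusted p = 0.356), and Snx6, a sorting nexin gene 11631 bases from Gm24305, one of 0.09 ± 0.0691 (edgeR adjusted p = 0.326). The nearest tested pseudogenes, Rpl31-ps17 and Gm2395, had log2 fold changes of -0.15 and -0.59 and did not pass the test either. Eapp lies at lower coordinates than Gm22513 and is read from the other strand, so its start faces Gm22513. Gm22513 thus lies within the 3000 bases upstream of Eapp, on the strand antisense to Eapp. Reads at Gm22513 cannot be told apart from antisense RNA of that upstream region, and the share of such RNA was not tested.

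**Figure D2:**
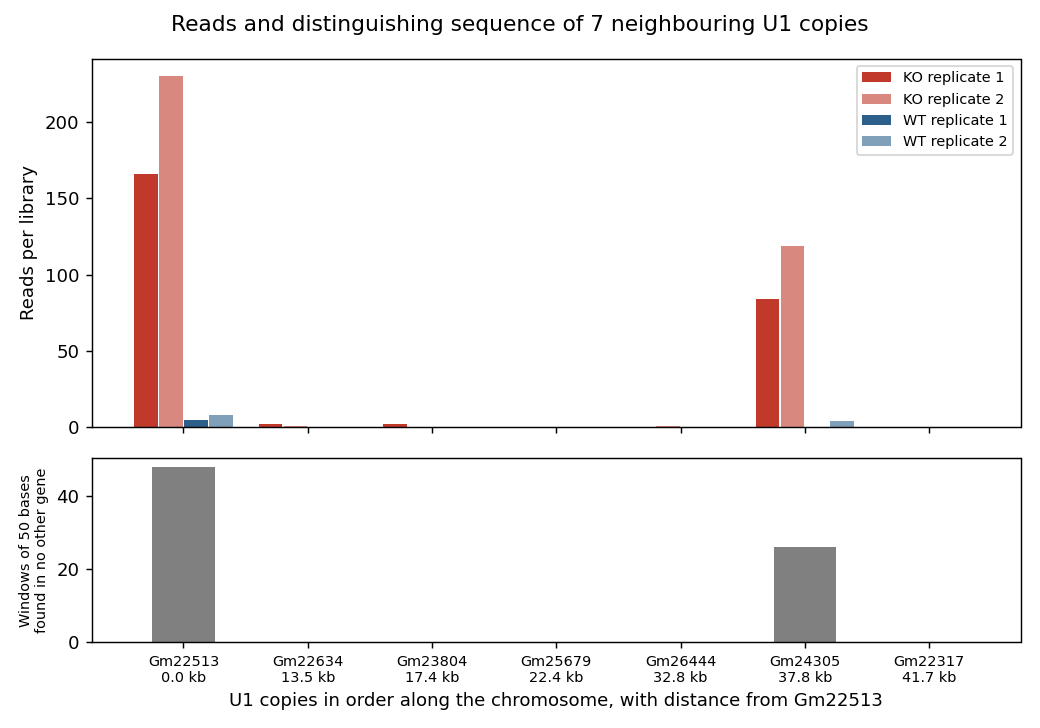
Reads per library (upper panel; KO libraries in red and WT libraries in blue) and the number of 50-base windows found in no other annotated gene (lower panel) for 7 U1 copies, labelled with distance from Gm22513. Reads are seen at the only 2 copies that have distinguishing windows, Gm22513 with 48 and Gm24305 with 26, and at the other 5 they sum to 4 and 2 in KO and 0 and 0 in WT.

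Over the U1 class as a whole, the ratio between genotypes was smaller than for this pair. Gm22513 and Gm24305 took 58.4% (Clopper-Pearson 95% interval 53.6 to 63.1) and 62.4% (58.3 to 66.5) of all reads at 208 U1-class genes in the KO libraries. In the WT libraries the pair took 2.6% (0.851 to 5.97) and 6.19% (3.24 to 10.6). The other 206 genes summed to 178 and 210 reads in KO and 187 and 182 reads in WT, against 97.2 and 110.0 reads in KO and 87.2 and 81.7 reads in WT expected from background. As CPM they averaged 9.95 in KO and 5.55 in WT, a log2 ratio of 0.84. A further 6 U1-class copies are at least 95% identical to Rnu1a1 and have distinguishing windows. Together they held 7 and 3 reads in KO and 7 and 5 reads in WT, so the genotypes overlapped. The named genes Rnu1a1, Rnu1b1, Rnu1b2 and Rnu1b6 have 0 distinguishing windows of 50 bases; Rnu1b2 had 4 and 5 reads in KO and 5 and 11 reads in WT, and each other had at most 2 reads in any library.

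Both full-length U2 copies were also higher in KO. Gm22973 (ENSMUSG00000065232), 191 bases at chr12:59040335-59040525 on the plus strand, had 43 and 44 reads in KO libraries, against 12 and 15 reads in WT libraries. Its level was 2.24 ± 0.157 CPM in KO and 0.4 ± 0.00735 CPM in WT (SD, n = 2 each), with a log2 fold change of 2.47 ± 0.402 (SE) and a ratio of 5.6 (counting interval 3.6 to 8.98). The groups stood well apart and the libraries within each were close, and 125 of 142 windows of this copy are its own. Gm25360 (ENSMUSG00000094655), 191 bases at chr1:72226240-72226430 on the plus strand, had 18 and 43 reads in KO libraries, against 7 and 22 reads in WT libraries. It averaged 1.53 ± 0.776 CPM in KO and 0.407 ± 0.242 CPM in WT, with a log2 fold change of 1.87 ± 0.497 and a ratio of 3.66 (2.31 to 5.9). Its libraries spread widely within each genotype, and the lower KO library (0.985 CPM) lay above the higher WT library (0.578 CPM). Without the second KO library the log2 fold change was 1.18, and without the second WT library it was 2.67.

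Gm25360 also sits among near copies. Gm23472, Gm24497 and Gm25939, within 28768 bases downstream and 97.9% to 98.4% identical to it, summed to 17 and 30 reads in KO and 5 and 14 reads in WT. The most distinguishable of them, Gm25939 with 59 of 142 windows of its own, had 7 and 21 reads in KO and 5 and 10 reads in WT, and in CPM its KO libraries (0.383 and 1.02) lay above its WT libraries (0.169 and 0.263). Gm25939 lies in an intron of D230017M19Rik on the same strand, so its reads cannot be told apart from unspliced RNA of that gene. Gm23472 and Gm24497 also lie within the span of D230017M19Rik on the same strand. Their reads, and the sum given above, thus cannot be told apart from RNA of that gene either. Neither flanking gene rose. Mreg, which encodes the melanosome transport protein melanoregulin, fell by 0.62 on the log2 scale (SE 0.0878; edgeR adjusted p = 8.25e-06), and the noncoding D230017M19Rik had a log2 fold change of 0.14 (edgeR adjusted p = 0.78). Beside Gm22973, Trappc6b, a vesicle tethering subunit, fell by 0.36 (SE 0.0756; edgeR adjusted p = 0.000685), and Gemin2, which helps load Sm proteins onto snRNAs, had a log2 fold change of -0.18 (edgeR adjusted p = 0.356).

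Gm24666 (ENSMUSG00000089562), the diverged U2 copy of 167 bases at chr5:9169063-9169229 on the plus strand, had 6 and 13 reads in KO libraries, against 14 and 18 reads in WT libraries. In CPM it averaged 0.479 ± 0.213 in KO and 0.473 ± 0.000715 in WT, a log2 fold change of 0.03 ± 0.583 and a ratio of 1.03 with a counting interval of 0.553 to 1.88. The WT libraries (0.472 and 0.473 CPM) fell between the KO libraries (0.328 and 0.629 CPM). Counting error alone leaves changes within the counting interval undetected. That interval leaves out the spread between the KO libraries, which could hide larger changes. All 118 of its windows are its own. Its nearest tested genes, Dmtf1 and Gm7332, had log2 fold changes of -0.1 and -0.62, neither past the test (edgeR adjusted p = 0.325 and 0.34).

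In the U2 class, Gm22973, Gm25360 and Gm24666 together took close to the same share of reads at 54 U2-class genes in all libraries. It was 47.2% and 51.8% in KO and 47.1% and 57.9% in WT, with Clopper-Pearson intervals that all overlap. Gm24666 held 6 and 13 of their 67 and 100 reads in KO, but 14 and 18 of their 33 and 55 reads in WT. The joint share thus does not describe Gm22973 and Gm25360 alone, which held a larger part of these reads in KO than in WT. The 51 other U2-class genes summed to 75 and 93 reads in KO and 37 and 40 reads in WT, with 25.7 and 29.0 reads in KO and 23.1 and 21.6 reads in WT expected from background. Their level averaged 4.3 CPM in KO and 1.15 CPM in WT, a log2 ratio of 1.90, and for the 11 of them at least 95% identical to Rnu2-10 the log2 ratio was 2.23. Rnu2-10 itself, which has 0 windows of its own, had 1 and 3 reads in KO and 0 and 0 reads in WT. An exact two-sided permutation test of such a sum over 2 against 2 libraries cannot go below p = 0.333, the value it gave for the other U1, U2 and U6 genes alike.

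The U6-class copies were at low levels, 1 above and 1 below its WT libraries in KO. Gm22753 (ENSMUSG00000065591), 107 bases at chr11:23479561-23479667 on the minus strand, lies in an intron of Usp34, a ubiquitin protease gene read from the other strand. It had 10 and 10 reads in KO libraries, against 2 and 8 reads in WT libraries, which is 0.516 ± 0.0444 CPM in KO and 0.139 ± 0.101 CPM in WT (SD, n = 2 each). The KO libraries lay above the WT libraries, with a log2 fold change of 1.8 ± 0.716 and a ratio of 3.48 (counting interval 1.55 to 8.32). The value without the first WT library was 1.23, and without the second it was 2.82. Usp34 itself had a log2 fold change of -0.11 ± 0.0597 (edgeR adjusted p = 0.162).

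Gm23205 (ENSMUSG00000089296), 103 bases at chr18:38297939-38298041 on the plus strand, lies in an intron of Rnf14, a ubiquitin ligase gene read from the same strand, so its reads cannot be told apart from unspliced Rnf14 RNA. It had 2 and 3 reads in KO libraries, against 13 and 18 reads in WT libraries. Its level was 0.127 ± 0.0253 CPM in KO and 0.456 ± 0.0246 CPM in WT, a log2 fold change of -1.8 ± 0.748 and a ratio of 0.28 (counting interval 0.0851 to 0.727). It was the copy whose KO libraries both lay below its WT libraries, and it ranked 25056 of 25076 from the highest log2 fold change. Rnf14 fell by 0.2 (SE 0.0713; edgeR adjusted p = 0.036), while the neighbours Pcdh12 and Gnpda1 had log2 fold changes of 0.33 and -0.05 and did not pass. Gm22716, a U6-class copy inside an Ep400 intron on the same strand, had 3 and 3 reads in KO and 14 and 15 reads in WT. Before any allowance for background, such copies as a set went the other way. The 287 annotated snRNA genes in same-strand introns, other than the 7 copies, summed to 12.1 and 14.0 CPM in KO. In WT they summed to 9.41 and 7.97 CPM, a log2 ratio of 0.59. These sums were 222 and 290 reads in KO and 279 and 303 reads in WT. Background was expected to give 104 and 117 of these reads in KO and 92.9 and 87.1 in WT. The ratio still contains this background, which relative to depth was higher in KO. Expected background in any of the 7 copies, from upstream regions too low to test, was between 0.261 and 0.647 reads per library. It does not measure transcription around each copy. The 3000 bases before Gm24666, for example, held 53 and 38 sense reads in KO and 75 and 84 in WT. Both U6 copies together made up 2.03% and 1.68% of U6-class reads in KO and 1.96% and 3.42% in WT. The other 956 genes of the class averaged 34.3 CPM in KO and 22.3 CPM in WT (log2 ratio 0.62). They summed to 579 and 761 reads in KO and 749 and 735 reads in WT. Expected from background were 299 and 337 reads in KO and 268 and 251 reads in WT. Gm25047 alone, described below, held 187 and 214 of the reads in KO and 255 and 272 in WT. Neither background nor Gm25047 is taken out of the ratio.

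**Figure D3:**
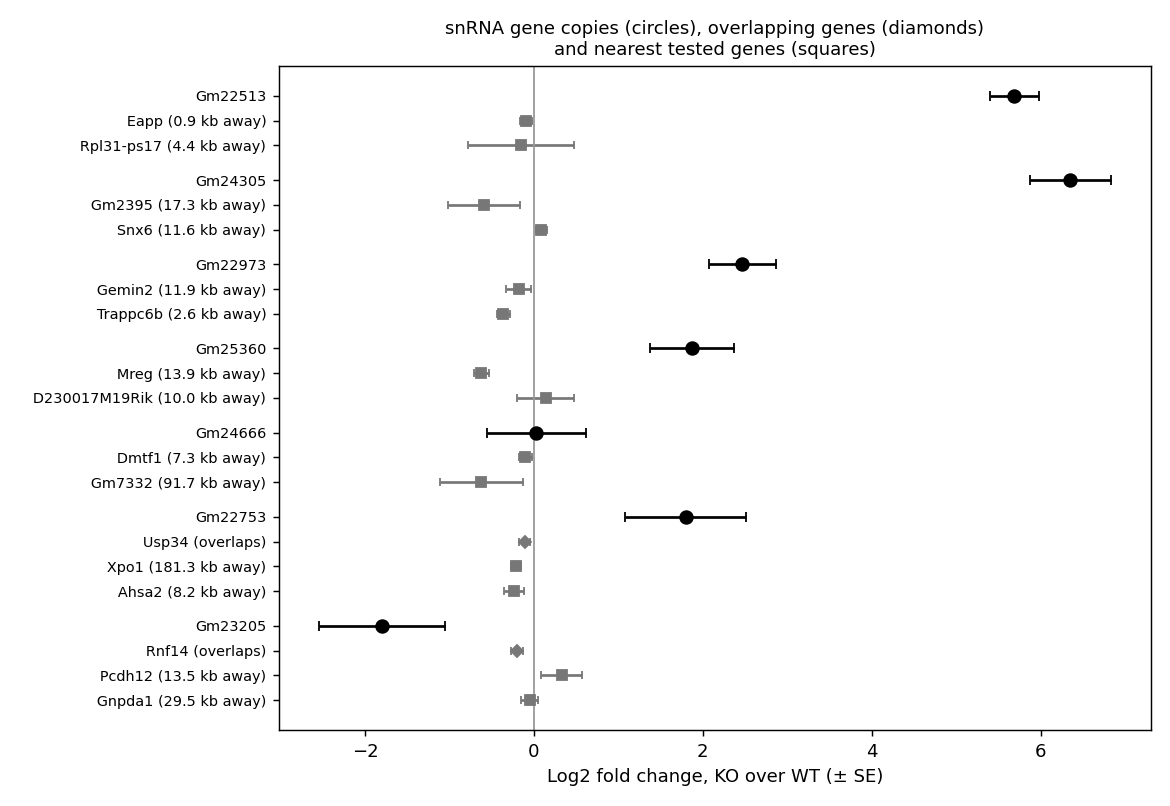
Log2 fold change, KO over WT, with its SE (horizontal axis) for the 7 snRNA gene copies (circles), the genes they lie in (diamonds) and the nearest tested genes (squares). Gm22513 and Gm24305 stand at 5.69 and 6.35, whereas their neighbours lie between -0.59 and 0.09, and Gm23205 at -1.8 lies below Rnf14 at -0.2.

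**Figure D4:**
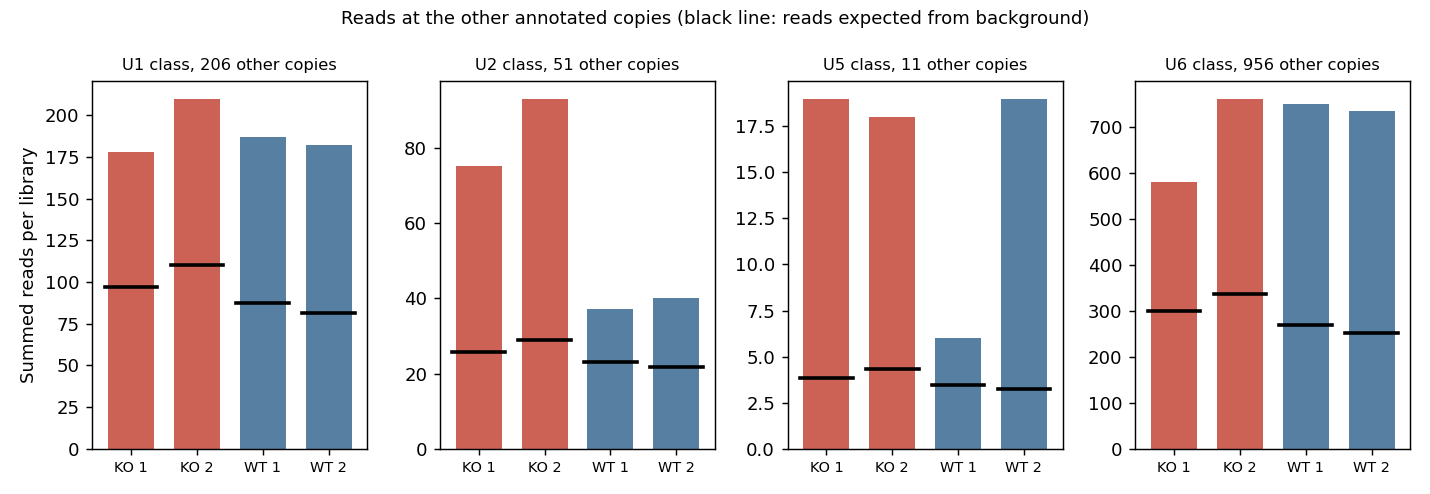
Summed reads per library (vertical axis, a separate scale for each class) at annotated U1, U2, U5 and U6 copies other than the 7, with the reads expected from background as black lines. The U2 copies had 75 and 93 reads in KO and 37 and 40 in WT in spite of the lower depth in KO, and the U1 copies 178 and 210 in KO and 187 and 182 in WT.

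Only 2 further annotated snRNA genes passed the filter, and 999 of the 1385 had any read. Rnu11, whose RNA recognises the 5′ splice site of minor introns, had 272 and 310 reads in KO and 139 and 217 reads in WT, and rose by 1.51 ± 0.144 on the log2 scale (edgeR adjusted p = 4.04e-08). Of its 85 windows of 50 bases, 0 are its own. It overlaps an exon of Gm28872 on the other strand, and windows were searched on either strand. Whether that overlap accounts for the lack of own windows was not tested. Gm25047, a U6-class copy on the X chromosome, had 187 and 214 reads in KO and 255 and 272 reads in WT, which after scaling is 10.2 and 10.4 CPM in KO and 8.6 and 7.15 CPM in WT. Its log2 fold change was 0.39 ± 0.146 (edgeR adjusted p = 0.0428), and it missed the threshold without the first KO library (adjusted p = 0.116), without the second (0.203) and without the second WT library (0.368). With the 7 copies, 6 of 9 tested snRNA genes were called higher and 0 lower by edgeR, and 5 higher and 0 lower by DESeq2; as 7 of the 9 were picked on this contrast, nothing is read from these counts. Rn7sk, the RNA that holds the elongation factor P-TEFb inactive, had 519 and 980 reads in KO and 1293 and 1358 reads in WT, with overlapping CPM and a log2 fold change of -0.05 ± 0.349 (edgeR adjusted p = 0.929). Of the other named genes, Rnu5g had 5 and 4 reads in KO and 1 and 2 in WT, Rnu12 had 2 and 12 in KO and 3 and 4 in WT, Rnu6 had 1 and 0 in KO and 0 and 3 in WT, Rnu6-ps2 had 0 and 0 in KO and 3 and 0 in WT, and Rnu7 had 0 in all. The U6-like Gm23205 had more reads in WT than either U6 gene so named, and the remaining copy of highest mean count, the U1-class Gm23027, had 4 and 2 reads in KO and 7 and 12 reads in WT.

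Most listed genes whose products make, process and package snRNAs were lower in KO. Of 106 tested genes on 6 lists, 71 fell in KO, 0 rose and 35 did not pass (67.0% lower; edgeR adjusted p under 0.05), with a median log2 fold change of -0.28 against 0.05 over all tested genes. Among all genes at least 5 times above background, 30.7% fell and 8.44% rose, with a median of -0.12. Nothing is called particular to the lists from these counts, and pachytene spermatocyte markers fell beside them by a median of 0.86 on the log2 scale; the part of that shift was not tested.

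Of 13 snRNA transcription genes 7 fell, among them Tbp, the TATA-binding protein (-0.48 ± 0.0598), Snapc5, a subunit of the snRNA activating complex (-0.43 ± 0.0935), and Ell and Ice2 of the little elongation complex (-0.32 ± 0.0633 and -0.33 ± 0.0762). Of 14 tested genes of Integrator, which cleaves the 3′ ends of nascent U1 and U2, 10 fell, among them Ints11, the endonuclease (-0.68 ± 0.105), Ints10 (-0.83 ± 0.0678), Ints13 (-0.54 ± 0.0714) and Ints1 (-0.35 ± 0.0601). The median log2 fold change was -0.27 for the transcription list and -0.29 for Integrator.

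Of 21 genes for cap binding, export and assembly 12 fell (median -0.27). They included Ncbp1, the large cap-binding subunit (-0.57 ± 0.0592), Snupn, the import adaptor snurportin (-0.71 ± 0.0932), Coil, the Cajal body scaffold (-0.6 ± 0.0812), and Gemin5, which recognises snRNAs for the SMN complex (-0.43 ± 0.0639). The export adaptor Phax and the cap methyltransferase Tgs1 did not pass, at log2 fold changes of 0.04 ± 0.0749 and 0.05 ± 0.0814. Of 10 genes for 3′ trimming and modification 4 fell (median -0.16): Larp7, which binds 7SK RNA and guides U6 modification (-0.59 ± 0.0592), the U6 uridylyltransferase Tut1 (-0.47 ± 0.0817), the U6 methyltransferase Mettl16 (-0.21 ± 0.0685) and the La protein gene Ssb (-0.16 ± 0.0605). The snRNA trimming exonucleases Toe1 and Usb1 did not pass, at -0.13 ± 0.09 and -0.01 ± 0.106.

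Of 18 Sm and LSm genes, which encode the rings that bind snRNAs, 14 fell (median -0.35), with Lsm4 at -0.71 ± 0.066, Lsm7 at -0.53 ± 0.0832, Lsm2 at -0.46 ± 0.0595 and Snrpf at -0.37 ± 0.0599. Of 30 tested genes for other proteins of the major ribonucleoproteins 24 fell (median -0.28), with the U1 protein gene Snrpc at -0.48 ± 0.0723, the tri-snRNP gene Prpf3 at -0.48 ± 0.0631, the U5 gene Snrnp40 at -0.43 ± 0.0653 and the U2 gene Sf3b1 at -0.38 ± 0.0606. None of the 106 rose under any processing alternative tried, and between 53 and 73 fell.

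Upstream regions of 3000 bases were read for Gm22973, Gm25360, Gm24305 and Gm24666; those of Gm22513, Gm22753 and Gm23205 were not analysed here. On the strand of the gene, the region before Gm22973 had 7 and 12 reads in KO and 1 and 2 reads in WT, that before Gm25360 had 9 and 14 reads in KO and 4 and 8 in WT, that before Gm24305 had 4 and 1 reads in KO and 0 and 0 in WT, and that before Gm24666 had 53 and 38 reads in KO and 75 and 84 in WT. Inside the U1 cluster, the region before Gm26444, which was singled out after its values were seen, had 14 and 12 reads in KO and 0 and 0 reads in WT on the sense strand. That is 15.1-fold higher in KO when the WT group is set to a floor of 3 reads, with counting error of the KO reads left out. It did not pass the edgeR test across regions (adjusted p = 0.0926), which 0.0166% of sense regions passed. The opposite strand of this region had 4 and 6 reads in KO and 5 and 5 reads in WT.

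Of 8 tested antisense regions upstream of genes that flank or contain a copy, 2 rose and 0 fell, where 8.65% of all tested antisense regions were called in either direction. Among 8 tested sense regions of such genes, 0 rose and 0 fell. The region before Dmtf1, near Gm24666, had 118 and 150 reads in KO and 83 and 122 reads in WT (log2 fold change 1.19 ± 0.202; edgeR adjusted p = 0.00485). The region before Xpo1, the nuclear export receptor gene beyond Usp34, had 39 and 66 reads in KO and 30 and 22 reads in WT (log2 fold change 1.77 ± 0.358, edgeR adjusted p = 0.0136). Xpo1 lies 181312 bases from Gm22753.

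The tested genes whose profile over the 4 libraries was nearest to the mean profile of the 7 copies were 4 noncoding genes and Otog. By root mean square difference of centred log2 CPM, among 15162 candidates, these were 4930578M07Rik (0.262), Gm48242 (0.351), Otog (0.363), 1300014J16Rik (0.37) and Gm43137 (0.375). Otog is a protein-coding gene for the inner ear matrix protein otogelin, and it had 54 and 80 reads in KO and 28 and 60 reads in WT. In CPM all 5 were higher in both KO libraries than in both WT libraries. The mean profile they were picked to match already had that direction, so nothing is read from it. That mean mixes Gm24305 (log2 fold change 6.35) with Gm24666 (0.03) and Gm23205 (-1.8). It therefore need not match any single copy.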

How the data were processed

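RNA-seq of 2 KO and 2 WT mouse testes (postnatal day 17) was analysed from raw read counts per gene, which, per the file headers, the authors made by strand with featureCounts 1.6.4 on exons of GENCODE M18. Trimming with cutadapt and alignment tool HISAT2 on GRCm38.p5 come from the submitters' processing notes. The recorded commands hold no option to keep reads that map to several places or overlap several genes, so counts of near-identical copies are uncertain. Upstream regions of 3000 bases were deposited as counts made the same way.

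Here counts were fitted with edgeR 4.0.16 in R 4.3.3 (filterByExpr, TMM, robust quasi-likelihood test, genotype only, Benjamini-Hochberg adjustment, threshold 0.05), after the code was tested on simulated data. Depth was 17663416 to 40329170 gene reads. DESeq2 1.42.0, other scalings and filters, background subtraction, a replicate block and leaving out each library were alternatives. Classes came from blastn 2.17.0 (e-value at most 1e-05). Symbols came from GENCODE M21 (99.88% of genes), whose coordinates were identical for all 1385 snRNA genes. Windows of 50 bases were searched among annotated transcripts, not the genome; read length is not given in the sources used here. Sequences of the U6 class are not reported here. Background is the trimmed mean over 14248 upstream regions too low to test. Genes named are the 7 copies, genes overlapping or flanking them, Rnu and Rn7s genes, the 5 further snRNA genes of highest mean count, up to 4 called genes per list and the 5 nearest profiles; further copies in the clusters, and genes given as not passing, were chosen after their values were seen. The 7 copies and the lists were chosen with earlier results of these data known.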

Additional observations from a re-analysis of the deposited data

How the results depend on the processing

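Of 60 recomputed counts of calls, 54 stayed within 1.5 times the reported count, and none of the recomputed fold changes of called genes reversed. The 6 that moved were all counts of genes higher in KO. Those that stayed include snRNA genes lower and pathway genes higher, which were 0 throughout, so the 54 overstate stability. The count of genes higher in KO, 2906 by edgeR, was 1937 with no filter on low counts, 1081 by DESeq2 and 1192 after background subtraction, and 1324 to 2429 when 1 library was left out (1521 without KO replicate 1, 1324 without KO replicate 2, 2429 without WT replicate 1 and 1537 without WT replicate 2). The cause was not tested. The count of genes lower in KO, 5092, lay between 4061 and 5668. Of the tested snRNA genes, 4 to 6 were called higher and 0 lower under every alternative run, with the 4 when KO replicate 2 was left out. With a replicate block 3361 genes were higher, 5469 lower, 6 snRNA genes higher and 73 pathway genes lower. Differences between same-numbered libraries did not go together (correlation -0.00826 over 25076 genes), so the numbers give no pairing. The log2 fold change of Gm22513 ranged from 5.48 to 5.85 and of Gm22973 from 2.38 to 2.54. That of Gm24305 ranged from 5.52 to 9.89; the highest value came without WT replicate 2, which leaves 0 WT reads, so that it depends on the prior count. Gm24666 ranged from -0.57 (without KO replicate 2) to 0.39, Gm22753 from 1.23 to 2.82, and Gm23205 from -2.07 to -1.65 where it passed the filter. For each of the 7 copies the SE of the log2 fold change was larger by DESeq2 than in the edgeR fit. It was 0.473 against 0.294 for Gm22513 and 0.805 against 0.481 for Gm24305. Gm25047 also missed the threshold with no filter (adjusted p = 0.148), by DESeq2 (0.194) and after background subtraction (0.0543). Depth limits Gm22753, Gm24666 and Gm23205, which rest on 2 to 18 reads per library, and reads mapped to several places were not kept by any recorded option.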
